A study of Mus musculus with 3 samples.

Results

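The 7 genes described here, Ms4a1, Ms4a4b, Ms4a4c, Ms4a6b, Ms4a6c, Ms4a6d and Ms4a7, were taken by name from the 27998 genes of 3 single-cell count matrices of the mouse aorta. They are 7 of the 19 genes of the Ms4a family in those matrices. The family encodes small proteins that cross the cell membrane several times and sit beside receptors and channels of immune cells. Its best known member, Ms4a1, encodes CD20, the surface protein of B cells that is the target of therapeutic antibodies, and Ms4a2 encodes a subunit of the IgE receptor of mast cells. Other members are known as genes of T cells, monocytes and macrophages, and in human the MS4A locus is tied to the level of soluble TREM2, a lipid receptor of macrophages.

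Each of the 3 libraries came from 1 pool of suprarenal aortas, so that every group is 1 library and no value has a replicate. The aneurysm library pooled 4 Apoe-/- mice (C57Bl/6 background) kept for 16 weeks on a high fat Western diet with cigarette smoke and chosen for a measurable dilatation. The room air library pooled 5 Apoe-/- mice kept for 16 weeks on the same diet in room air, and the control library pooled 5 C57Bl/6 mice on chow. Smoke and the choice of dilated aortas therefore came together, as did the loss of Apoe and the diet, and their parts cannot be told apart. Cells were sorted as CD45+CD31- leukocytes and CD45-CD31+ endothelial cells, so that the sort set the mix of cells.

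The deleted gene Apoe had 13.1 CPM in aneurysm, 17.1 CPM in room air and 10533 in control, where CPM is the number of unique molecular identifiers (UMIs) of a gene per 1000000 UMIs of the cells summed. The matrices list 2842, 1851 and 782 barcodes for aneurysm, room air and control, beside 2685, 1736 and 738 cells in the labels. All barcodes together held 16698309 UMIs in aneurysm, 9998517 in room air and 2568192 in control. Of these barcodes 2775, 1821 and 773 were kept as cells. The median barcode had 4476, 3884 and 2681 UMIs in aneurysm, room air and control, and the stated viability was 94%, 91% and 73%. The aneurysm and room air libraries shared 5 cell barcodes, room air and control shared 4, and aneurysm and control shared 0. Over all barcodes the 19 genes of the family took 44043 UMIs in aneurysm (0.264% of the library), 25719 in room air (0.257%) and 4684 in control (0.182%).

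Cells were grouped into 25 clusters without any Ms4a gene, and the clusters were named by marker lists that hold no Ms4a gene, so that the level of a member in a class did not help to draw the class. Defining markers were present where they should be: the macrophage list of 10 genes summed to 17982, 18110 and 26292 CPM in the macrophage-like cells of aneurysm, room air and control, against 659, 2110 and 710 CPM in the T cell-like cells. The macrophage-like class joined cluster 1 (Spp1, Gpnmb, Mmp12, lipid-associated), cluster 4 (Ccl12, Cxcl10, Ifit3, interferon), cluster 8 (Apoe, Ccl24, Lyve1, resident) and cluster 15 (Ccl8, Cd209f, Cxcl13, resident). Cluster 8 held 250 of the 262 macrophage-like cells of control, 12 of 465 in room air and 5 of 524 in aneurysm, while clusters 1, 4 and 15 held the others. The libraries therefore filled the macrophage class from different clusters. The T cell-like class joined cluster 3 (Ccl5, Gzmk, Cd8a), with 138 cells in aneurysm, 252 in room air and 9 in control, cluster 5 (Dapl1, Cd8b1, Lef1), with 255, 70 and 41, and cluster 6 (Izumo1r, Lef1, Cd4), with 200, 99 and 49.

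All 7 genes lie within 355 kb of mouse chromosome 19 in build mm10, inside the 679 kb that hold the 19 genes of the family. Ms4a1 lies at chr19:11249675-11266241 and Ms4a7 at chr19:11321039-11336146, both on the minus strand. Ms4a4c at chr19:11404770-11427246, Ms4a4b at chr19:11443553-11467055, Ms4a6c at chr19:11469366-11482192 and Ms4a6b at chr19:11516512-11531256 follow on the plus strand, and Ms4a6d at chr19:11586604-11604849 lies on the minus strand. Neighbours differed in the cells that held their UMIs: Ms4a4b, a T cell gene here, lies between the monocyte genes Ms4a4c and Ms4a6c.

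**Figure D1:**
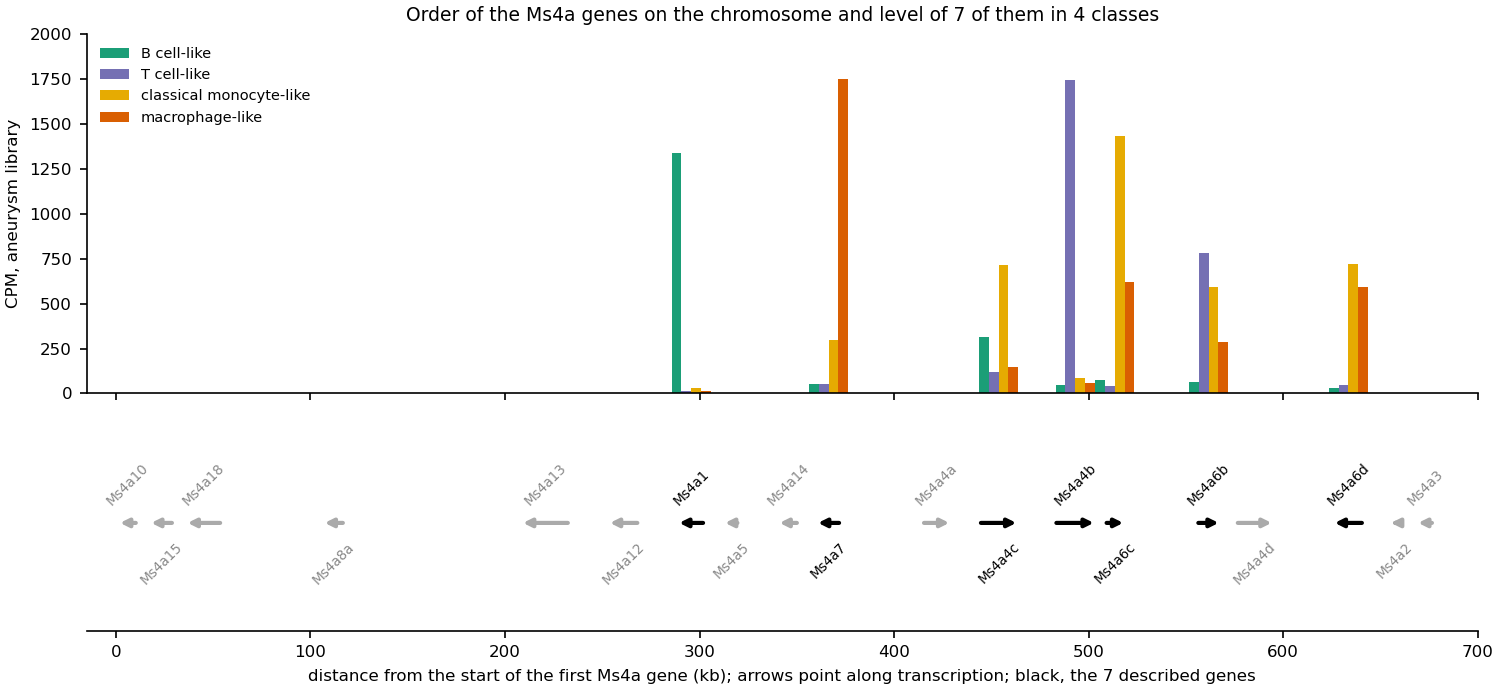
Levels of the 7 genes in the aneurysm library (CPM, bars, upper panel, in B cell-like, T cell-like, classical monocyte-like and macrophage-like cells) above the order and strand of the 19 Ms4a genes, with distance in kb from the start of the first gene of the family. The highest bar changes from B cells at Ms4a1 (1335 CPM) to macrophages at Ms4a7 (1749 CPM), T cells at Ms4a4b (1745 CPM) and classical monocytes at Ms4a6c (1431 CPM).

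The sequences before the starts of both Ms4a4 genes and before those of Ms4a6b and Ms4a6c are shown because each pair is alike in sequence. The Ms4a4 pair was unlike in the cells that held its UMIs. Both Ms4a6 genes were high in classical monocyte-like cells (590 and 1431 CPM in aneurysm for Ms4a6b and Ms4a6c), and they differed in T cell-like cells (780 and 40.1 CPM). They are the 250 bases before the start in RefSeq, build GRCm38.p6, all on the plus strand, for Ms4a4b at chr19:11443308-11443557, Ms4a4c at chr19:11407411-11407660, Ms4a6b at chr19:11518309-11518558 and Ms4a6c at chr19:11469118-11469367. Capitals mark the bases that are identical in the local alignment with the partner, Ms4a4b with Ms4a4c and Ms4a6b with Ms4a6c.
Ms4a4b: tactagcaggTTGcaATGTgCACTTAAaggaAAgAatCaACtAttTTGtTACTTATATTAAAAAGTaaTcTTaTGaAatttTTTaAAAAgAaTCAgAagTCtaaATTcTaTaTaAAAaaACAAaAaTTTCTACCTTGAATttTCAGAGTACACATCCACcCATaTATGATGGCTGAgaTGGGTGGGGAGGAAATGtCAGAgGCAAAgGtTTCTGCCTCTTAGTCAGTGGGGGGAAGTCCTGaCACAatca
Ms4a4c: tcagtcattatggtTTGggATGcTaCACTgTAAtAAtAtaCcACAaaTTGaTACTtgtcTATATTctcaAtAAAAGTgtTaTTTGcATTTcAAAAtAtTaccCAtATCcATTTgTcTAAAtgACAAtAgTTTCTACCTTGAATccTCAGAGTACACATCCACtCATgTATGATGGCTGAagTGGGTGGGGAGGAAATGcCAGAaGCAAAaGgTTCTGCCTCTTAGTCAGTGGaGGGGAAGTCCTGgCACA
Ms4a6b: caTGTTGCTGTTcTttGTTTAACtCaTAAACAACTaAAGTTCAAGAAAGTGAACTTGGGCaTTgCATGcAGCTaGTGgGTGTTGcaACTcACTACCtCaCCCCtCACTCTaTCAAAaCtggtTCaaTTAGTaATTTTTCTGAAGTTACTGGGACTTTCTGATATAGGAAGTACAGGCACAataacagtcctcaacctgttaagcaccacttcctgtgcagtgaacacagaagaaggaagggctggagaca
Ms4a6c: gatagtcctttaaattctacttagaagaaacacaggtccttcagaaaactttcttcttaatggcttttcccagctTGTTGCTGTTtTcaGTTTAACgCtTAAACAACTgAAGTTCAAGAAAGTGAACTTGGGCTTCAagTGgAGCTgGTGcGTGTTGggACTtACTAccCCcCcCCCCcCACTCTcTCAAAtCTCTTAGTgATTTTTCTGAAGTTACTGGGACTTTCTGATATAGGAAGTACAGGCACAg
The Ms4a4 pair was identical at 184 of 251 aligned columns (73.3%) and the Ms4a6 pair at 152 of 182 (83.5%). RefSeq starts were held for 5 of the 7 genes. In those windows neither strand held the interferon-stimulated response element, found in 2.98% of 32851 mouse windows of that length, the composite ETS and IRF element (2.30%), GAGGAAGT of PU.1 (2.44%) or TGTGGTTT of RUNX factors (1.49%). No match says only that these letters are absent from these windows.

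Each gene had a leading lineage, and the lead of most was shared by the 3 libraries. Ms4a1 led in B cell-like cells, Ms4a4c in classical monocyte-like cells and Ms4a7 in macrophage-like cells of all 3. Ms4a4b led in T cell-like cells of room air and control and in NK-like cells of aneurysm, the only library with at least 25 NK-like cells. Ms4a6b led in T cell-like cells of aneurysm and room air and in classical monocyte-like cells of control, where the interval of their ratio held 1. Ms4a6c led in nonclassical monocyte-like cells of aneurysm, with an interval against classical monocyte-like cells that held 1, and in classical monocyte-like cells of room air and control. Ms4a6d led in classical monocyte-like cells of all 3, with an interval against macrophage-like cells that held 1 in room air. Levels are given for classes with at least 25 cells in a library unless a cell number is stated, and intervals in brackets are exact 95% intervals of counting error only.

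**Figure D2:**
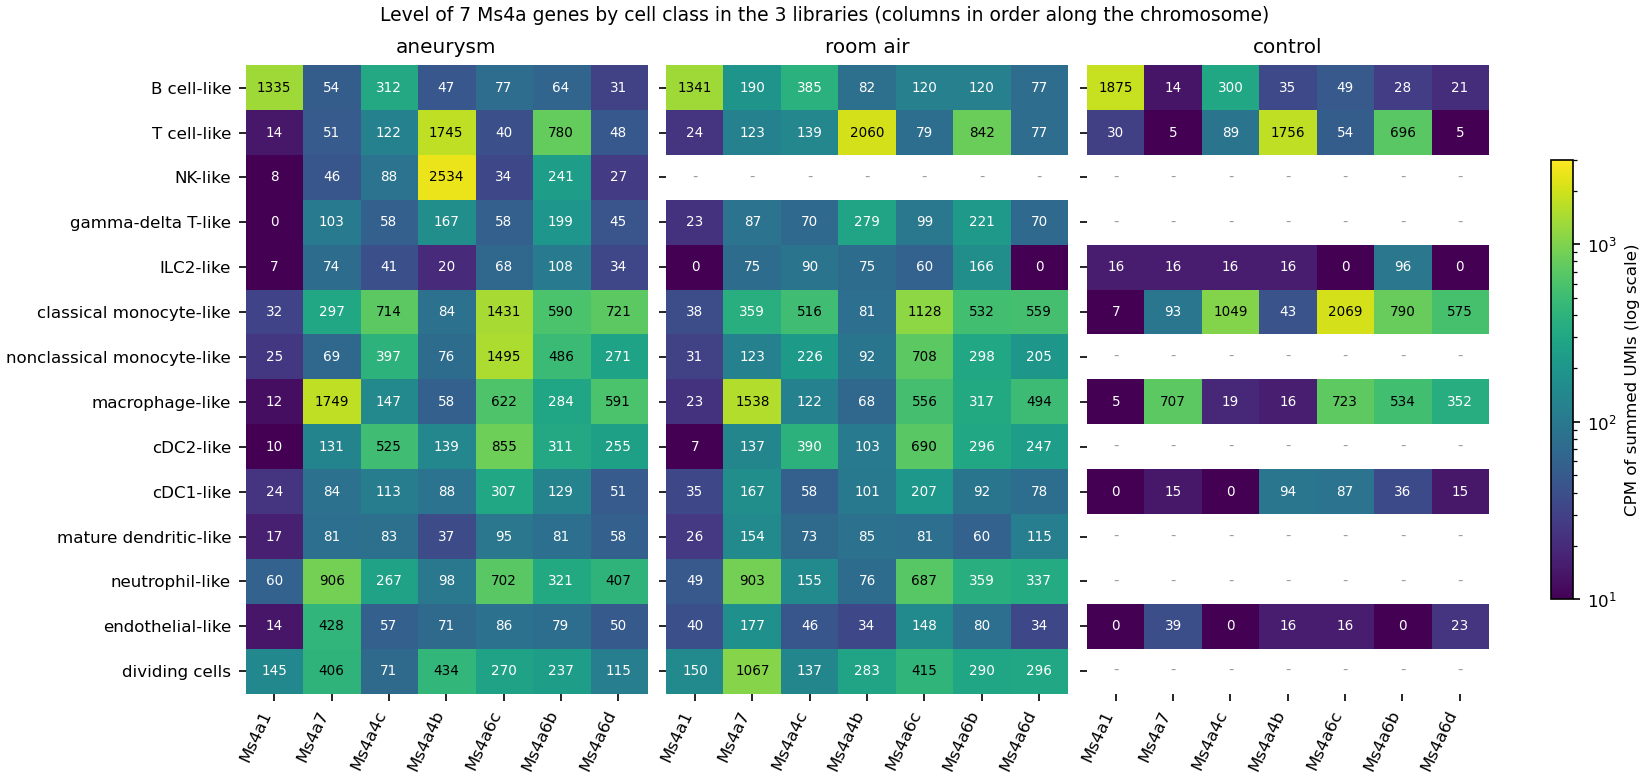
Level of the 7 genes (columns, in chromosomal order; CPM printed in each cell, colour on a log scale) by class (rows) in the aneurysm, room air and control libraries, with a dash where a library held fewer than 25 cells. Ms4a1 stands out in the B cell-like row (1335, 1341 and 1875 CPM) and Ms4a7 in the macrophage-like row (1749, 1538 and 707 CPM).

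Ms4a1, the CD20 gene of B cells, had 1335 CPM in B cell-like cells of aneurysm (1272 to 1400), 1341 CPM in room air (1248 to 1440) and 1875 CPM in control (1658 to 2113). At least 1 UMI was found in 95.05% of the 444 B cell-like cells of aneurysm, 84.4% of 225 in room air and 86.9% of 99 in control, with medians of 2383.5, 2226 and 1295 UMIs per cell. In T cell-like cells, which should lack the gene, it was found in 3.37%, 4.99% and 2.02% of cells, at medians of 2715, 2498 and 1895 UMIs. The level in B cell-like cells was 93.2 times that in T cell-like cells in aneurysm (62.9 to 144), 56.0 times in room air and 63.4 times in control. Outside B cell-like cells the level was far lower, though in some classes it lay above the free RNA estimates described below, 11.7 CPM in aneurysm and 24.0 CPM in room air. In dividing cells, a cluster led by cell cycle genes, it had 145 CPM in aneurysm and 150 CPM in room air, with 12.1 CPM in 23 control cells. The unnamed cluster 9 had 67.5 and 86.7 CPM in aneurysm and room air, and neutrophil-like cells had 60.4 and 49.2 CPM. In plasma cell-like cells, the antibody-secreting end of the lineage, it had 80.1 CPM in 14 cells of aneurysm and 57.5 CPM in 20 of room air.

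Room air over control, the Ms4a1 level in B cell-like cells was 0.715 times as high (0.622 to 0.825), and aneurysm over room air it was 0.995 times as high (0.914 to 1.09). Neither reached the 1.5-fold that is used below to count genes. With the free RNA estimate subtracted, Ms4a1 had 1447, 1670 and 1982 CPM in aneurysm, room air and control. Room air then lay above aneurysm and nearer to control. CD20 partners in the B cell membrane were measured beside it. The receptor subunit Cd79a had 2680, 2222 and 3625 CPM in aneurysm, room air and control. Cd40, the receptor through which T cells help B cells, had 60.0, 66.3 and 97.6 CPM in B cell-like cells and 217 and 179 CPM in mature dendritic-like cells of aneurysm and room air. Among B cell-like cells Cd79a and Cd40 were, like Ms4a1, highest in control.

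Ms4a4b, a T cell gene whose product is known to associate with the costimulatory receptor GITR in mouse, had 1745 CPM in T cell-like cells of aneurysm (1684 to 1808), 2060 CPM in room air (1977 to 2145) and 1756 CPM in control (1578 to 1948). It was found in 93.6%, 96.0% and 91.9% of these cells. In B cell-like cells, taken as lacking the gene, it was found in 10.6%, 18.7% and 5.05%. Within T cells the cytotoxic cluster 3 was highest, with 2764 CPM in aneurysm and 2485 CPM in room air. Cluster 5 had 1523 CPM in aneurysm, 1375 CPM in room air and 1665 in control, and cluster 6 had 1302, 1594 and 1803 CPM. The step of cluster 3 over cluster 5 was 1.81-fold in aneurysm (1.67 to 1.97) and 1.81-fold in room air (1.60 to 2.05).

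NK-like cells, the innate cytotoxic lineage, had 2534 CPM of Ms4a4b in aneurysm (2345 to 2735, 73 cells), 1.45 times the T cell-like level (1.33 to 1.58). The 22 NK-like cells of room air had 1905 CPM and the 19 of control 1749 CPM. Other lymphocytes were low. Gamma-delta T-like cells had 167 CPM in aneurysm and 279 CPM in room air, and ILC2-like cells, the innate lymphocytes of type 2 immunity, had 20.3, 75.4 and 15.9 CPM in aneurysm, room air and control. Ms4a4b was thus high in T and NK cells and low in 2 other lymphocyte classes. The gene for GITR, Tnfrsf18, had another order, with 138, 147 and 104 CPM in T cell-like cells and 677, 1237 and 686 CPM in ILC2-like cells of aneurysm, room air and control.

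The T cell-like level of Ms4a4b was 0.847 times as high in aneurysm as in room air (0.802 to 0.895) and 1.17 times as high in room air as in control (1.05 to 1.32). With free RNA subtracted, room air and control lay further apart, at 2519 and 1851 CPM. Within clusters, aneurysm over room air was 1.11 in cluster 3 (1.03 to 1.20), 1.11 in cluster 5 (0.975 to 1.26) and 0.817 in cluster 6 (0.724 to 0.923). Cluster 3 made up 138 of 593 T cell-like cells in aneurysm and 252 of 421 in room air, and the pooled ratio and those of clusters 3 and 5 lie on opposite sides of 1.

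Ms4a6b, the other family member of T cells in these data, had 780 CPM in T cell-like cells of aneurysm (739 to 822), 842 CPM in room air and 696 in control. It was found in 85.3%, 81.7% and 66.7% of them. Unlike Ms4a4b it was also present across myeloid cells. Classical monocyte-like cells, the Ly6c-high monocytes of blood, had 590 CPM in aneurysm, 532 CPM in room air and 790 in control. Macrophage-like cells had 284, 317 and 534 CPM. By cluster, lipid-associated cluster 1 had 168 CPM in aneurysm and 166 CPM in room air, interferon cluster 4 had 482 and 496 CPM, and resident cluster 15 had 414 and 415 CPM. Cluster 1 was the low macrophage state, at 0.35 times the level of cluster 4 in aneurysm and 0.34 times in room air. Resident cluster 8 of control had 549 CPM. B cell-like cells had 64.0, 120 and 27.9 CPM in aneurysm, room air and control, the lowest of the large classes.

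Ms4a4c, a gene of monocytes and B cells here, had 714 CPM in classical monocyte-like cells of aneurysm (671 to 758), 516 CPM in room air (452 to 588) and 1049 CPM in control (886 to 1233). It was found in 92.0% of them in aneurysm, 83.8% in room air and 36 of 40 cells in control. Conventional dendritic cells of the cDC2-like class had 525 CPM in aneurysm and 390 CPM in room air, and nonclassical monocyte-like cells, the patrolling monocytes, had 397 and 226 CPM. Besides Ms4a1 it was the member with the highest level in B cell-like cells, with 312 CPM in aneurysm, 385 CPM in room air and 300 in control, which were 2.57, 2.77 and 3.38 times the T cell-like level. In macrophage-like cells it had 147, 122 and 19.4 CPM in aneurysm, room air and control. Interferon cluster 4 had 327 CPM in aneurysm and 220 CPM in room air, against 84.1 and 64.2 CPM in lipid-associated cluster 1, and 14.5 CPM in resident cluster 8 of control. Its level therefore ran from high in monocytes to low in resident macrophages of control, where the free RNA estimate was 6.74 CPM. Of 1070 words of 98 bases in the last 500 bases of its transcripts, 23 (2.15%) are also in Ms4a4b or Ms4a4d, so that a small share of its reads could not be placed.

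Ms4a6c, a monocyte and macrophage gene, had 1431 CPM in classical monocyte-like cells of aneurysm (1370 to 1494), 1128 CPM in room air (1031 to 1231) and 2069 CPM in control (1837 to 2322), and was found in 98.9% of them in aneurysm, 98.6% in room air and 38 of 40 cells in control. Nonclassical monocyte-like cells had 1495 CPM in aneurysm and 708 CPM in room air, and cDC2-like cells had 855 and 690 CPM. Macrophage-like cells had 622 CPM in aneurysm, 556 CPM in room air and 723 in control. The range across macrophage clusters was narrow beside that of Ms4a4c, with 457 and 337 CPM in cluster 1, 897 and 878 CPM in cluster 4 and 809 and 447 CPM in cluster 15 of aneurysm and room air, and 743 CPM in cluster 8 of control. The cDC1-like class, the dendritic cells that prime cytotoxic T cells, had 307, 207 and 87.1 CPM. T cell-like cells had 40.1, 79.0 and 54.3 CPM in aneurysm, room air and control.

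Ms4a6d, whose product is known in mouse macrophages to pair with the complement receptor Vsig4, had 721 CPM in classical monocyte-like cells of aneurysm (678 to 766), 559 CPM in room air and 575 in control. Macrophage-like cells had 591, 494 and 352 CPM, and the gene was found in 91.2%, 82.4% and 62.2% of them, at median depths of 7203, 6083 and 2995 UMIs. In contrast to the other Ms4a6 genes, lipid-associated cluster 1 was its highest macrophage state, with 633 CPM in aneurysm and 527 CPM in room air, against 565 and 464 CPM in cluster 4 and 484 and 406 CPM in cluster 15. Cluster 8 of control had 354 CPM. Vsig4 was found mainly in the resident clusters, with 33.7 and 131 CPM in cluster 15 of aneurysm and room air, 60.3 CPM in cluster 8 of control, and 0 and 1.65 CPM in cluster 1. Ms4a6d and Vsig4 thus had their highest macrophage levels in different clusters.

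Ms4a7, a macrophage gene, had 1749 CPM in macrophage-like cells of aneurysm (1709 to 1789), 1538 CPM in room air (1496 to 1580) and 707 CPM in control (653 to 765), and was found in 94.7%, 93.3% and 74.8% of them. In B cell-like cells, taken as lacking the gene, it was found in 13.3%, 38.7% and 2.02%, and in T cell-like cells in 13.5%, 27.3% and 1.01%. Lipid-associated cluster 1 was highest, with 2003 CPM in aneurysm and 1706 CPM in room air, then cluster 4 with 1717 and 1454 CPM, then resident cluster 15 with 905 and 781 CPM. Cluster 8 had 666 CPM in control and 904 CPM in the 12 cells of room air. Cluster 1 was 2.21 times cluster 15 in aneurysm and 2.18 times in room air. The order of the macrophage states was the same in both libraries. Classical monocyte-like cells had 297 CPM in aneurysm, 359 CPM in room air and 93.4 in control, so that macrophage-like cells were 5.89, 4.29 and 7.57 times higher. Trem2, the lipid receptor tied to the human locus, had 528, 615 and 200 CPM in macrophage-like cells and was also higher in cluster 1, with 686 and 785 CPM.

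**Figure D3:**
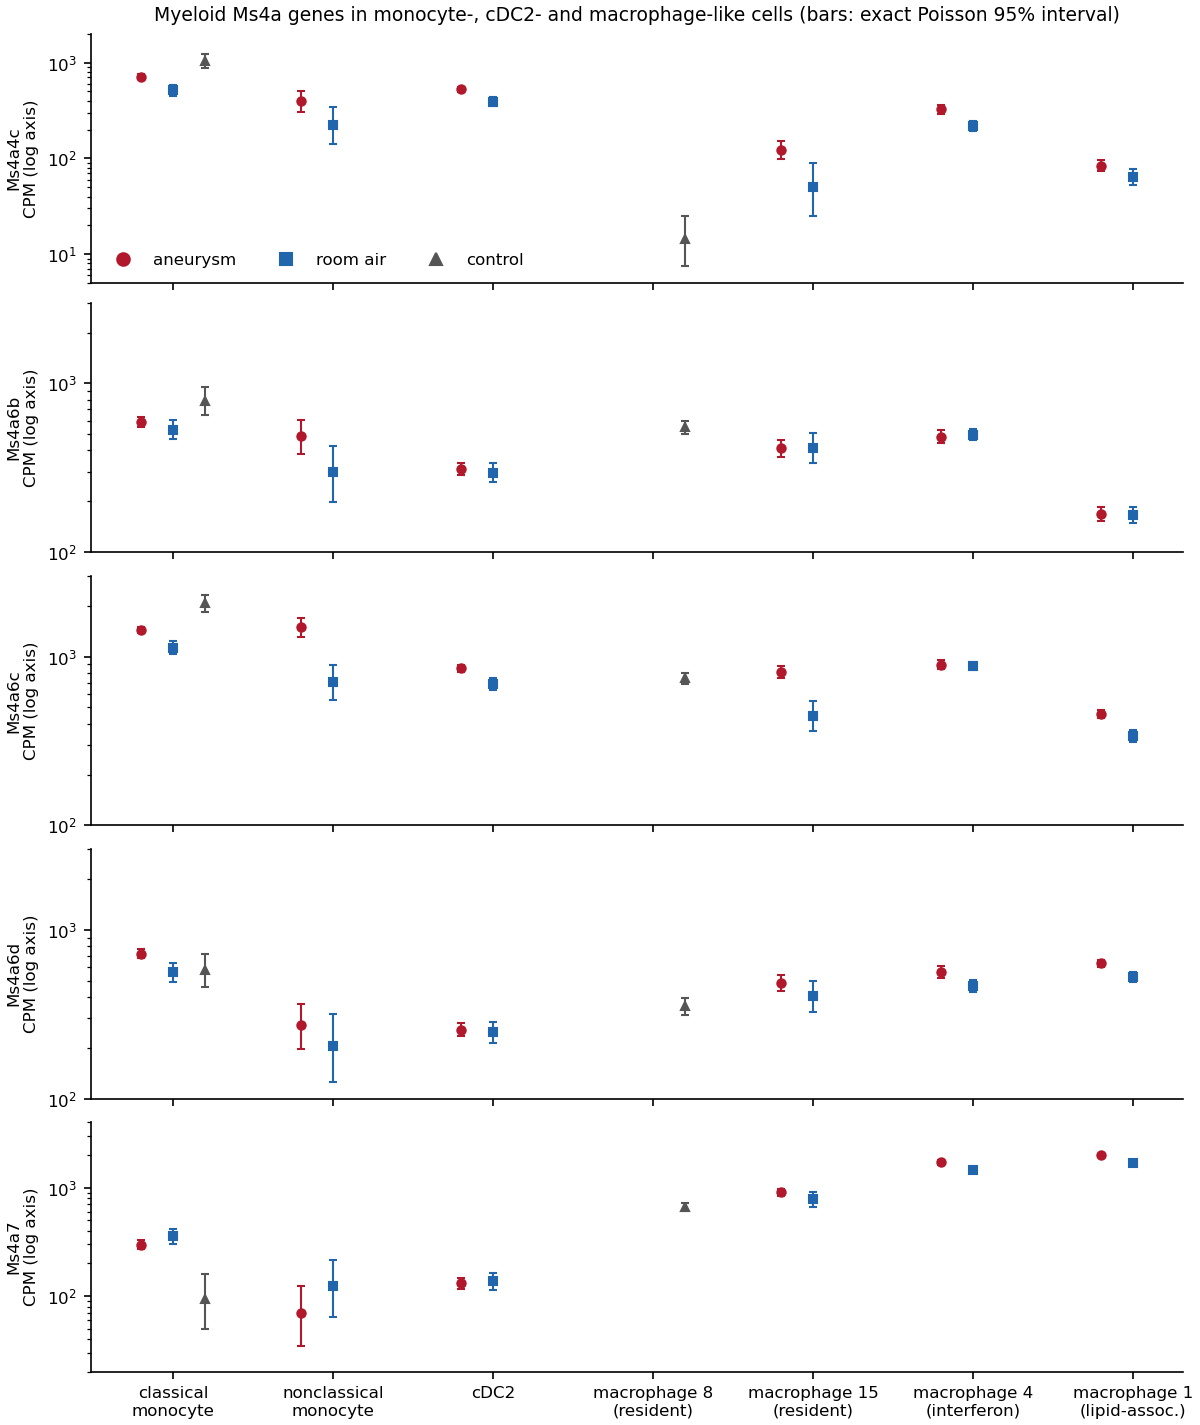
Level (CPM, log axis) of 5 members in myeloid classes and macrophage clusters of the aneurysm (circles), room air (squares) and control (triangles) libraries, with exact Poisson 95% intervals as bars and groups of fewer than 25 cells left out. Ms4a4c and Ms4a6c are highest in monocytes and Ms4a7 is highest in lipid-associated macrophages (2003 and 1706 CPM).

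The make-up of the family within a class summarises these patterns as shares of the UMIs of the 7 genes, which depend on how well each 3' end is counted and are not levels per length. In B cell-like cells Ms4a1 took 69.5% in aneurysm, 57.9% in room air and 80.8% in control. In T cell-like cells Ms4a4b took 62.3%, 61.6% and 66.7%, and Ms4a6b 27.8%, 25.2% and 26.4%. In classical monocyte-like cells Ms4a6c took 37.0%, 35.1% and 44.7%. In macrophage-like cells Ms4a7 took 50.5% in aneurysm, 49.3% in room air and 30.01% in control, and in control Ms4a6c led with 30.7%. The sum of the 7 genes was highest in classical monocyte-like cells of aneurysm (3868 CPM) and control (4626 CPM) and in T cell-like cells of room air (3344 CPM, beside 3214 CPM in classical monocyte-like cells), and lay at 3463, 3118 and 2357 CPM in macrophage-like cells. Mature dendritic-like cells, the migratory Ccr7 state, were low at 451 CPM in aneurysm and 594 CPM in room air, and ILC2-like cells had 352, 467 and 159 CPM.

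Members were found together in single cells after each cell was thinned to 1500 UMIs. Classical monocyte-like cells held on average 2.98, 2.84 and 2.78 of the 7 genes in aneurysm, room air and control, and 68.4%, 64.9% and 55.0% of them held 3 or more. Macrophage-like cells held 2.52, 2.41 and 2.17, T cell-like cells 1.88, 2.15 and 1.78, and mature dendritic-like cells 0.54 in aneurysm and 0.76 in room air. Ms4a4b and Ms4a6b were found in the same cell in 59.5%, 62.7% and 56.1% of T cell-like cells. Ms4a6d and Ms4a7 were found together in 47.3%, 37.6% and 21.2% of macrophage-like cells. In B cell-like cells Ms4a1 and Ms4a4c were found together in 28.6%, 27.1% and 20.7%, where the control value rests on 29 cells because 70 were shallower than the thinning depth.

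Across 38 sums of class and library, which share libraries, depth and free RNA, the genes most like each member were found by Pearson's r of log2(CPM + 10). Ms4a1 was most like the B cell genes Ly6d (0.95), Pax5 (0.93) and Fcmr (0.92). Ms4a4b was most like Sh2d1a (0.92), Lck (0.90) and Cd28 (0.88), all genes of T cell signalling. Ms4a7 was most like Trem2 (0.93), C3ar1 (0.92) and C1qb (0.91). Ms4a6c was most like Cd300a (0.94), Ifi204 (0.93) and Tlr2 (0.93), and Ms4a6d like Ctsa (0.95), Fcgr1 (0.93) and Tlr2 (0.93). The patterns of Ms4a4c and Ms4a6b were less like any single gene, with Cyp4f18 (0.78), Slfn2 (0.77) and Fam49b (0.76) for Ms4a4c and Fyb (0.85), Arhgap9 (0.78) and Gmfg (0.75) for Ms4a6b. Between members r was highest for Ms4a6c with Ms4a6d (0.90) and Ms4a6d with Ms4a7 (0.78), while Ms4a4b and Ms4a4c had 0.13.

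Low levels outside the leading lineage were read against free RNA, the RNA of broken cells that enters every droplet. C1qa, C1qb and C1qc, complement genes of macrophages, gave an estimated free RNA share of 8.55% in aneurysm, 21.1% in room air and 5.76% in control from their UMIs in B cell-like and T cell-like cells. For Ms4a7 this amounts to 57.0, 166 and 17.6 CPM. B cell-like cells had 53.7 CPM of Ms4a7 in aneurysm, 190 CPM in room air and 13.9 in control, and T cell-like cells had 51.0, 123 and 4.93 CPM. The levels lay close to the estimate in aneurysm and room air and below it in control, and are treated as background. The estimate takes all C1q UMIs of these same cells as free RNA, and Ms4a7 was like C1qb across classes (r 0.91). Closeness to the estimate is therefore not a separate check, and macrophage RNA from doublets was not told apart from free RNA. Ms4a4c in B cell-like cells (312, 385 and 300 CPM) lay far above its estimates of 22.2, 39.4 and 6.74 CPM.

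**Figure D4:**
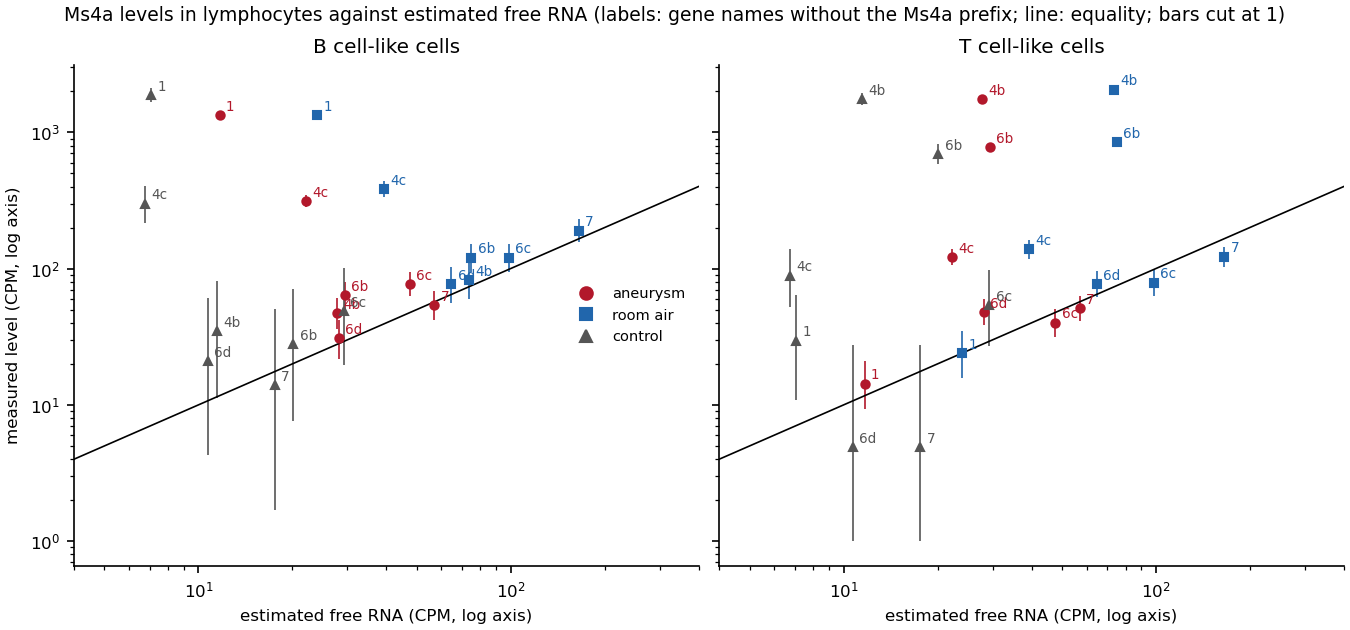
Measured level of each member (CPM, log axis) in B cell-like cells (left) and T cell-like cells (right) against the level expected of free RNA (CPM, log axis) in the aneurysm, room air and control libraries, with exact Poisson 95% intervals and the line of equality. Ms4a1 and Ms4a4c in B cells and Ms4a4b, Ms4a6b and Ms4a4c in T cells lie above the line, and Ms4a7 lies near it in aneurysm and room air.

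The comparison of aneurysm with room air asks about smoke exposure with dilatation on the same genotype and diet. It was made over genes with at least 20 UMIs in both libraries together, and a gene was counted when its ratio reached 1.5-fold. In classical monocyte-like cells 0 of 7 members were 1.5-fold higher and 0 lower, beside 11.9% and 10.7% of all genes. Ms4a4c was 1.38 times as high in aneurysm as in room air (1.20 to 1.60), Ms4a6d 1.29 times (1.12 to 1.49) and Ms4a6c 1.27 times (1.15 to 1.40). The median log2 ratio of the members was 0.15 and that of all genes -0.02. In nonclassical monocyte-like cells (42 cells in aneurysm, 30 in room air) 3 of 6 members were counted higher, beside 12.9% of all genes, and 1 of 6 lower, beside 11.5%. The higher members were Ms4a6c at 2.11 times (1.61 to 2.80), Ms4a4c at 1.76 times (1.07 to 3.00) and Ms4a6b at 1.63 times (1.05 to 2.60), which was 1.38 as a mean over cells and 1.39 with cells classed by their own markers. The member counted lower was Ms4a7, with 69.4 and 123 CPM, where the estimate of free RNA was 57.0 and 166 CPM.

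In cDC2-like cells 0 of 7 members were counted in either direction, beside 9.54% higher and 10.0% lower, and Ms4a4c was 1.35 times as high in aneurysm as in room air (1.19 to 1.53). In cDC1-like cells Ms4a4c had 113 CPM in aneurysm and 57.6 CPM in room air, 1.96 times (1.18 to 3.40), and was the 1 of 7 members counted higher, beside 14.2% of all genes. The 2 of 7 counted lower, beside 9.14%, were Ms4a6d and Ms4a7, both near free RNA. In mature dendritic-like cells (83 and 41 cells) 3 of 6 were counted lower, beside 14.5%, and 0 of 6 higher, beside 10.9%. The 3 were Ms4a4b, Ms4a6d and Ms4a7, each with its higher level, that of room air, under 2 times the free RNA estimate. In macrophage-like cells 0 of 7 were counted higher, beside 4.25%, and 1 of 7 lower, beside 7.28%. The 1 counted lower was Ms4a1, with 12.5 CPM in aneurysm and 23.3 CPM in room air, near the free RNA estimates of 11.7 and 24.0 CPM. Ms4a7 was 1.14 times as high in aneurysm macrophages as in room air (1.10 to 1.18), and 1.17, 1.18 and 1.16 times in clusters 1, 4 and 15. With free RNA subtracted, the macrophage-like levels of Ms4a7 were closer, at 1850 CPM in aneurysm and 1740 CPM in room air. In cluster 15 (83 cells in aneurysm, 41 in room air), where 2 of 7 members were counted higher beside 16.3% of all genes and 1 of 7 lower beside 11.6%, Ms4a4c was 2.46 times as high (1.31 to 5.10) and Ms4a6c 1.81 times (1.46 to 2.26). The member counted lower was Ms4a1, with 0.445% of the UMIs of the 7 genes in aneurysm and 2.97% in room air. In the resident clusters together its interval left out 1 and its room air level was at least 2 times the free RNA estimate. The B cell marker list summed to 194 CPM in cluster 15 of aneurysm and 361 CPM in room air, and its part was not tested. With the few cells of cluster 8 added, Ms4a6c was 1.66 times as high, and 1.17 times at resolution 2, where the resident clusters took in other cells.

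In B cell-like and T cell-like cells the members that were counted lay near free RNA. In B cell-like cells 5 of 7 were counted lower in aneurysm than in room air, beside 16.9% of all genes, and 0 of 7 higher, beside 7.06%. In T cell-like cells 4 of 7 were counted lower, beside 18.2%, and 0 of 7 higher, beside 6.38%. None of the 9 was a leading gene of its class, and the free RNA share was 8.55% in aneurysm and 21.1% in room air. In gamma-delta T-like cells (57 cells in aneurysm, 64 in room air) 2 of 5 were counted lower, beside 12.2% of all genes, and 0 of 5 higher, beside 13.9%. There Ms4a4b, with 167 CPM in aneurysm and 279 CPM in room air, was 0.599 times as high (0.357 to 0.985), and its level in room air was above the free RNA estimate of 73.4 CPM. Ms4a6c, the other one, was 0.586 times as high with an interval that held 1, at 57.8 and 98.7 CPM. In ILC2-like cells the 1 member with enough UMIs, Ms4a6b, was counted lower, beside 14.6%, with 108 and 166 CPM and an interval that held 1, and 0 of 1 was higher, beside 14.1%.

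Room air against control asks about the loss of Apoe with the Western diet. In classical monocyte-like cells (74 cells in room air, 40 in control) 2 of 6 members were counted lower, beside 8.35% of all genes, and 2 of 6 higher, beside 28.7%. Ms4a4c was 0.492 times as high in room air as in control (0.398 to 0.610) and Ms4a6c 0.545 times (0.471 to 0.632), while Ms4a6d was 0.973 times (0.754 to 1.27). When each cell was classed from its own markers, Ms4a4c was 0.752 times and Ms4a6c 0.822 times as high, so that neither kept the 1.5-fold. Ms4a7 was 3.84 times as high in room air (2.18 to 7.37), and the macrophage list of 10 genes summed to 5514 CPM in these cells of room air and 2141 CPM in control. Its part in the Ms4a7 ratio was not tested. The remaining gene counted higher, Ms4a4b, lay near free RNA.

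In macrophage-like cells 4 of 7 members were counted higher in room air than in control, beside 26.2% of all genes, and 1 of 7 lower, beside 15.1%. Ms4a7 was 2.17 times as high (2.00 to 2.37), Ms4a4c 6.30 times (3.89 to 10.9) and Ms4a6d 1.40 times (1.24 to 1.59), while Ms4a6b was 0.594 times as high (0.532 to 0.663) and Ms4a6c 0.769 times (0.703 to 0.843). Ms4a1 and Ms4a4b, the other members counted higher, lay near free RNA. These ratios set clusters 1, 4 and 15 in room air mostly against cluster 8 in control, and that of Ms4a6b was 0.818 at a coarser clustering (resolution 0.5), 0.724 with all barcodes, 0.680 as a mean over cells and 0.694 with cells classed by their own markers, all short of 1.5-fold. Within the resident clusters alone, cluster 15 with 12 cells of cluster 8 in room air and cluster 8 in control, Ms4a7 was 1.21 times as high (1.03 to 1.41), Ms4a6b 0.857 times (0.698 to 1.04) and Ms4a6c 0.658 times (0.541 to 0.795). At a finer clustering (resolution 2) the ratio of Ms4a7 was 1.84 and that of Ms4a6c 0.976. The clusters named resident at that resolution held 265, 262 and 162 cells, against 267 and 124 in clusters 8 and 15. They therefore took in other cells. In clusters 8 and 15 Ms4a6c was the 1 of 6 members counted lower, beside 14.4% of all genes. The 2 of 6 counted higher, beside 14.4%, were Ms4a4b and Ms4a4c, both near free RNA.

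**Figure D5:**
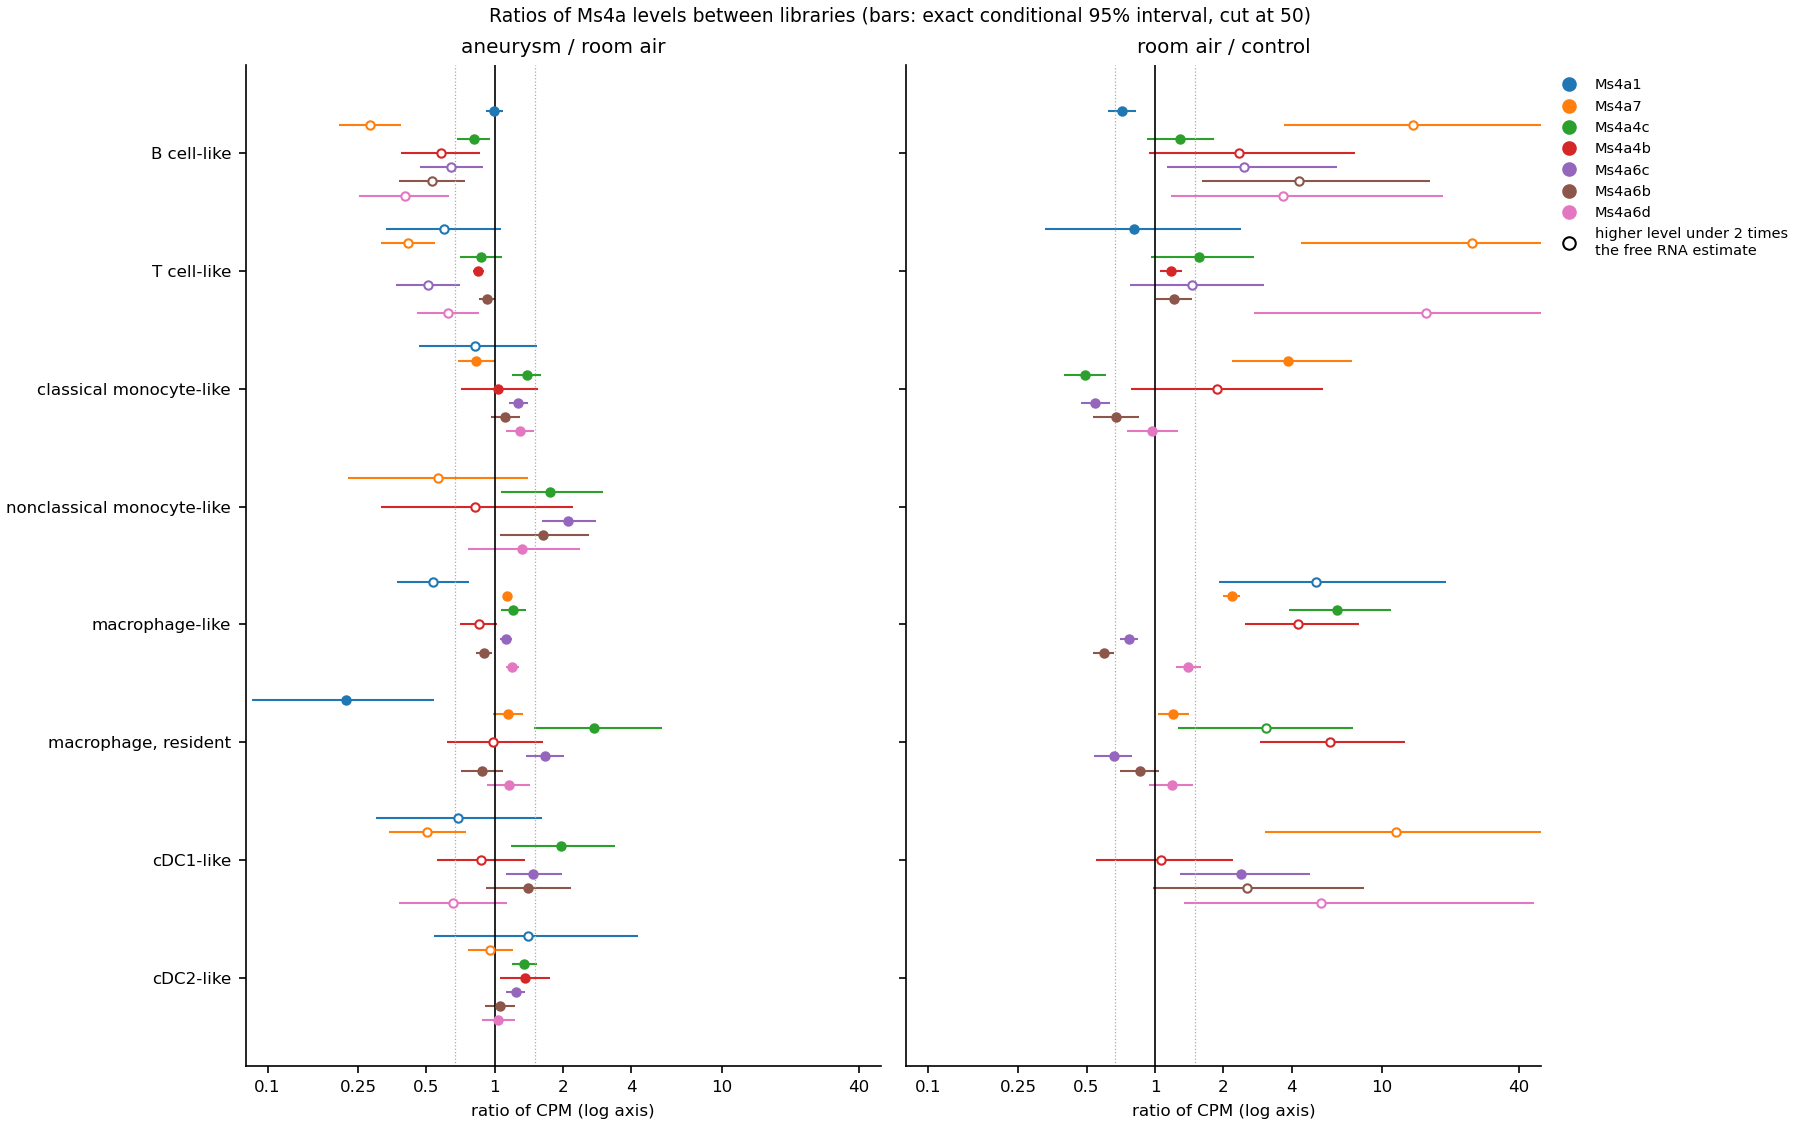
Ratio of CPM (log axis) of each member by class, aneurysm over room air (left) and room air over control (right), with exact conditional 95% intervals, a solid line at 1 and dotted lines at 1.5-fold. Open points mark pairs whose higher level was under 2 times the free RNA estimate. Ms4a4c and Ms4a6c of classical monocyte-like cells lie left of 1 on the right (0.492 and 0.545) and right of 1 on the left (1.38 and 1.27).

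In B cell-like cells of room air 5 of 7 members were counted higher than in control, beside 26.1% of all genes, and 0 of 7 lower, beside 11.1%. In T cell-like cells 3 of 7 were counted higher, beside 40.7%, and 0 of 7 lower, beside 7.14%. The leading genes of both classes were not among them. The 5 members of B cell-like cells and 2 of the 3 of T cell-like cells, Ms4a6d and Ms4a7, lay near free RNA, whose share was 21.1% in room air and 5.76% in control, and the macrophage list summed to 2158 and 690 CPM in B cell-like cells. The ratio of the remaining member of T cell-like cells, Ms4a4c, had an interval that held 1. In cDC1-like cells (38 in room air, 26 in control) 5 of 6 members were counted higher, beside 29.3% of all genes, and 0 of 6 lower, beside 8.16%. Ms4a6c was 2.38 times as high (1.28 to 4.82), and 1.497 times with cells classed by their own markers. Ms4a4c had 57.6 CPM in room air and no UMI in control, which makes it at least 2.65-fold higher against a floor of 3 counts, but the free RNA estimate in room air was 39.4 CPM. The other members counted higher, Ms4a6b, Ms4a6d and Ms4a7, also lay near free RNA.

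Some classes held genes of other lineages beside the members. In dividing cells (45 in aneurysm, 39 in room air) Ms4a7 had 406 CPM in aneurysm and 1067 CPM in room air, 0.380 times (0.324 to 0.446), and Ms4a4b had 434 and 283 CPM, 1.53 times (1.23 to 1.92). Of the 7 members 4 were counted lower there, beside 16.6% of all genes, and 1 higher, beside 13.3%. There the macrophage list summed to 4054 CPM in aneurysm and 11445 CPM in room air. Endothelial-like cells (27 in aneurysm, 38 in room air) were a cluster led by Cytl1, Tm4sf1 and Clu. Its 10 leading genes held 0 genes of the endothelial marker list, while 9 genes of that list were each found in at least 10% of its cells. There the macrophage list summed to 2392 and 2713 CPM, and Ms4a7 had 428 and 177 CPM, 2.42 times (1.55 to 3.87). It was the 1 of 3 members counted higher, beside 14.0% of all genes, and 1 of 3, Ms4a6c, was counted lower, beside 14.5%. In neutrophil-like cells (106 and 83) Ms4a4c had 267 CPM in aneurysm and 155 CPM in room air, 1.72 times (1.35 to 2.22), with 11709 and 14216 CPM of the macrophage list. It was the 1 of 7 members counted higher, beside 9.07% of all genes, and 0 of 7 were lower, beside 12.4%. The part of these macrophage transcripts in the ratios was not tested.

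The 12 other genes of the family were scarce, with 4 at 10 UMIs or more, 4 with 1 to 9 UMIs and 4 with 0. Ms4a8a had 453 UMIs in all, with 58.3, 58.6 and 108 CPM in classical monocyte-like cells of aneurysm, room air and control and 70.1 and 54.2 CPM in macrophage cluster 15. Ms4a14 had 164 UMIs, with 12.2, 14.5 and 3.42 CPM in macrophage-like cells. Ms4a4a had 67 UMIs and Ms4a4d had 28, of which cluster 24 (Dcn, Col3a1) had 269 CPM in 10 cells of aneurysm. Ms4a2, the IgE receptor subunit, had 1 UMI, and its partner Fcer1a was near 0, while Fcer1g, the subunit shared with other Fc receptors, had 4688, 4387 and 4914 CPM in classical monocyte-like cells.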

How the data were processed

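The authors deposited counts, whole numbers of UMIs for each gene in each barcode, not normalized. Libraries used 10x Genomics 3' v2 chemistry. The submitters' processing notes name Cell Ranger, STAR and mm10; which Cell Ranger version was not given in the sources used here. A smoke group without aneurysm was not analysed here.

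Barcodes with at least 200 genes and at most 10% mitochondrial UMIs were kept. Scrublet called 3 of 5465 cells (0.0549%) by its own threshold, which was set aside; the highest scores up to 0.8% per 1000 barcodes were removed. Cells were clustered in scanpy 1.11.5 (2000 variable genes, 30 components, 15 neighbours, Leiden resolution 1), without Ms4a genes or library integration, and clusters were named by marker lists. Clusters 9, 13, 23 and 24 stayed unnamed.

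UMIs were summed by class and library. With 1 library per group there is no test; intervals (exact Poisson for levels, exact conditional binomial for ratios, Clopper-Pearson for shares) cover counting error only. The code for ratios and their intervals was checked on simulated counts with known folds. Named genes were the 7 members, all other Ms4a genes, 9 measured partners of a list of 10 (1 is not reported here), and the 3 genes most like each member. Members and lists were chosen with earlier results of these data known. Alternatives are given at the end.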

Additional observations from a re-analysis of the deposited data

Results flagged for a closer look

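These results are listed because a gene was at least 1.5-fold higher in 1 class and 1.5-fold lower in another of the same comparison. Both intervals left out 1, and the higher level of each pair was at least 2 times the free RNA estimate. Only the most extreme class on each side is given. The difference between the classes was not tested, since each group is 1 library. Aneurysm over room air, Ms4a4b was 1.53 in dividing cells and 0.599 in gamma-delta T-like cells. Ms4a4c was 1.96 in cDC1-like cells and 0.522 in dividing cells. Ms4a6c was 2.11 in nonclassical monocyte-like cells and 0.651 in dividing cells. Ms4a7 was 2.42 in endothelial-like cells and 0.380 in dividing cells. Dividing cells took part in each of these pairs, and their macrophage list summed to 4054 CPM in aneurysm and 11445 CPM in room air, a difference whose part was not tested.

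Room air over control, Ms4a4c was 6.30 in macrophage-like cells and 0.492 in classical monocyte-like cells, and Ms4a6c was 2.38 in cDC1-like cells and 0.545 in classical monocyte-like cells. The macrophage-like ratio sets clusters 1, 4 and 15 mostly against cluster 8. In the resident clusters alone Ms4a4c was 3.07 (1.26 to 7.47), with levels of 44.4 CPM (room air) and 14.5 CPM (control), against free RNA estimates of 39.4 and 6.74 CPM.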

How the results depend on the processing

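No paired analysis was possible because each group is 1 library. The class with the highest level of a gene in a library stayed the same in 21 of 21 cases with all barcodes, clustering with the Ms4a genes, free RNA subtracted, no doublet removal or resolution 2, in 20 with the mean over cells or resolution 0.5, and in 19 when each cell was classed from its own markers. Of the 35 pairs of gene and class in room air over control, 21 were at least 1.5-fold higher and 3 lower. Among these, 4 of the higher and 3 of the lower had an interval that left out 1 and a higher level at least 2 times the free RNA estimate. With cells classed one by one from their own markers 0 of 35 were lower, and with free RNA subtracted 7 of 25 were higher and 7 lower. Of 77 pairs in aneurysm over room air, 7 were higher and 24 lower, of which 7 and 5 met the same limits on interval and free RNA. There 12 were higher at resolution 2, 4 with the mean over cells, and 20 of 64 with free RNA subtracted, and 15 were lower with no doublet removal, 13 of 70 from own markers and 9 of 64 with free RNA subtracted. In classical monocytes the room air over control ratio of Ms4a4c was 0.75 and that of Ms4a6c 0.82 from own markers, so both lost 1.5-fold. In macrophages that of Ms4a6b was 0.82 at resolution 0.5. Shares of at least 50% of cells numbered 76 of 238, and 38 after thinning. All genes were also counted over the named classes together, each gene once for every class in which it was measured. Of 28636 such pairs in room air over control, 8293 were higher and 3265 lower. Of 68034 pairs in aneurysm over room air, 6529 were higher and 8611 lower. Counting pairs from 1 UMI gave 35204 higher and 15907 lower of 79601 in room air over control, and 38360 and 41499 of 155410 in aneurysm over room air. Single ratios left the interval of the main value in 36 of 113 cases with free RNA subtracted, 28 of 104 from own markers, 20 of 138 at resolution 2, 16 of 137 with all barcodes, 10 of 119 at resolution 0.5, 7 of 137 without doublet removal, 5 of 138 with the Ms4a genes and 4 of 138 with the mean over cells. No ratio past 1.5-fold whose interval left out 1 and whose higher level was at least 2 times the free RNA estimate changed direction where an alternative gave a value, while some of the other ratios crossed 1. An alternative gave no value where it left a level of 0 or did not give the class in both libraries. The cause of these moves was not tested. With 1 library a group, differences between mice cannot be seen.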
